A study of Mus musculus with 6 samples.

Results

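Glycolysis and hypoxia genes, the enzymes and transporters that turn glucose into lactate together with the pentose phosphate branch and targets of the hypoxia-inducible factor HIF, were followed through the induction of the transcription factor PU.1 in a mouse pro-B cell line. The set has 38 genes, named by symbol, and all 38 were found among the 23793 rows of the deposited table. The induced group was 3 libraries of i660BM cells given 70 ng/ml doxycycline for 48 h, which switches on an introduced PU.1. The non-induced group was 3 libraries of the same cells without the drug. Both groups came from a single C57BL/6 line with the inducible PU.1 system, grown in medium with interleukin 7 and serum, so they share the line, the vector and the growth factor. No library received the drug without the induction, and effects of doxycycline and of PU.1 cannot be told apart. Whether each group's 3 libraries came from separate cultures is not in the labels, so the deposited p-values may reflect technical spread alone.

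The authors deposited a single FPKM figure for each gene in each group (fragments per kilobase of transcript, relative to sequencing depth), with a Cuffdiff test of the difference. Values of single libraries are not in the table used here, so each level below is a group value without a standard deviation. Below, "called", "rose" and "fell" are used of tested genes with a deposited q-value below 0.05. The error given with a log2 change (induced over non-induced) is the standard error implied by the deposited test statistic. Steps between the lowest values pointed to about 123457000 fragments in the induced group and 117096000 in the non-induced group, both approximate. Spi1, which encodes PU.1, stood at 246 FPKM in induced and 36.0 FPKM in non-induced cells in the authors' deposited table.

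Glycolysis splits a sugar into pyruvate through a chain of enzymes, most of which come as several paralogous genes used in different tissues. In proliferating lymphocytes much of the pyruvate is reduced to lactate and exported, and the pentose phosphate branch supplies ribose and NADPH for nucleotide and lipid synthesis. HIF, a dimer whose alpha subunit is destroyed in the presence of oxygen, raises the transcription of many of these genes, and MYC and mTOR signalling act on several of them too.

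In induced cells 19 of the 35 tested members fell and 1 rose, and 15 were not called. The other 3 members, Eno2, Slc16a3 and Egln3, were not tested. Over all tested rows 16.1% were called lower and 19% were called higher, against 54.3% and 2.86% of the tested members. The median log2 change of the tested members was -0.20, and that of all tested rows was -0.01, in the authors' deposited table. In bulk libraries such as these, fewer cells of a type and less RNA per cell cannot be told apart. The changes were small. Of the 19 genes that fell, 18 did so by less than 1.5-fold, and Ldhb alone by more. Most members were well expressed, so they were also set against rows of like level. Among members with a mean of at least 10 FPKM over the groups 19 of 31 were called lower and 0 higher by Cuffdiff, against 15.1% and 17.3% of all tested rows at that level. At an unadjusted p under 0.05 the tested members counted 20 lower and 1 higher. The share of all tested rows at that threshold was not counted, so these counts have no background beside them. With p-values taken from the deposited statistic as a normal deviate, 7 members were called lower and 0 higher, against 6.16% and 8.97% of all tested rows. Those 7 were Ldhb, Eno1, Pfkl, Gapdh, Ddit4, Tpi1 and Ldha, and the calls of the other 12 genes and of Pfkfb4 were lost.

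**Figure D1:**
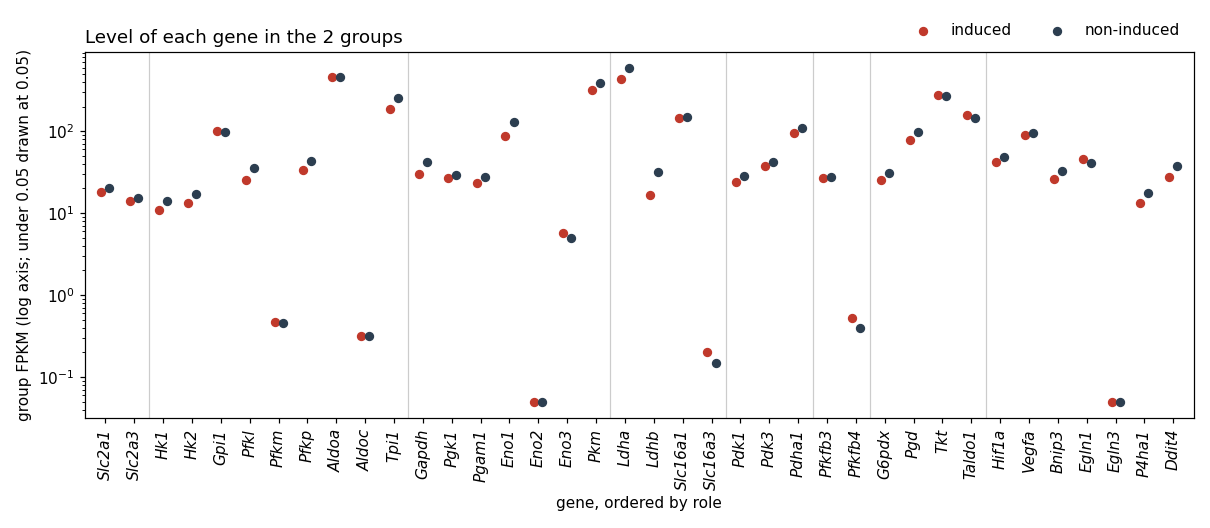
Group FPKM on a log axis for each of the 38 genes, ordered by role from glucose transport to HIF targets, with induced cells left of non-induced cells and values under 0.05 drawn at 0.05. Each point is the authors' group value. Ldha, Aldoa and Pkm stand highest, and Eno2 and Egln3 lie at the floor.

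**Figure D2:**
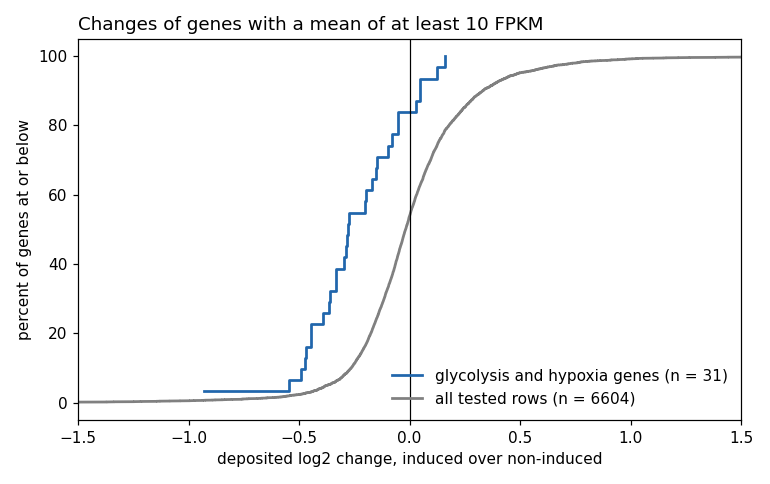
Cumulative share of genes (percent) against the deposited log2 change, for members with a mean of at least 10 FPKM (n = 31) and all tested rows at that level (n = 6604). The members' median is -0.28 and that of all these rows is -0.02.

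The glucose transporters were not called. Slc2a1, the basal transporter GLUT1, stood at 18.03 FPKM in induced and 20.02 FPKM in non-induced cells, a log2 change of -0.15 with a 95% interval of -0.41 to 0.11 in the authors' deposited table. Slc2a3, which encodes the high-affinity GLUT3, stood at 14.2 FPKM in induced and 15.2 FPKM in non-induced cells. The share of Slc2a1 in the summed FPKM of the pair was 55.9% in induced and 56.8% in non-induced cells, so both transcripts were present at like levels in either group.

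At the first step of the chain both hexokinase genes, whose products trap glucose in the cell as its phosphate, fell by like amounts. Hk2, the inducible form, stood at 13.3 FPKM in induced and 17.1 FPKM in non-induced cells, a log2 change of -0.36 ± 0.14 (q = 0.000287) in the authors' deposited table. Hk1, the widely expressed form, stood at 10.8 FPKM in induced and 13.95 FPKM in non-induced cells, a log2 change of -0.36 ± 0.15 (q = 0.00055) in that same authors' deposited table. Hk2 made up 55.1% of the hexokinase FPKM in induced and 55.03% in non-induced cells. Gpi1, the isomerase of the next step, was not called at 101 FPKM in induced and 98.0 FPKM in non-induced cells.

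Phosphofructokinase is the committed step of glycolysis. Pfkl, the liver-type subunit, stood at 25.5 FPKM in induced and 35.9 FPKM in non-induced cells and fell by 0.49 ± 0.14 on the log2 scale (q = 0.000287) in the authors' deposited table. Pfkp, the platelet-type subunit, stood at 33.9 FPKM in induced and 42.7 FPKM in non-induced cells and was called lower with a wider error, -0.33 ± 0.24 (q = 0.0392), in the authors' deposited table. Pfkp shares its locus in the table with the neighbouring gene Pitrm1, which was also called lower, at 61.3 FPKM in induced and 74.4 FPKM in non-induced cells. The muscle-type gene Pfkm was near 0, at 0.463 FPKM in induced and 0.458 FPKM in non-induced cells, and its implied standard error of 1.40 allows no statement on a change. It shares its locus with Senp1, which stood at 18.5 FPKM in induced and 14.7 FPKM in non-induced cells. Pfkfb3 and Pfkfb4 encode enzymes that make and remove the sugar bisphosphate that activates phosphofructokinase. Pfkfb3, the form with the strongest kinase activity, was not called at 26.9 FPKM in induced and 27.9 FPKM in non-induced cells. Pfkfb4 was the single member called higher, at 0.520 FPKM in induced and 0.395 FPKM in non-induced cells (log2 change 0.40 ± 0.27, q = 0.0445) in the authors' deposited table. It made up 1.90% of the FPKM of this pair in induced and 1.39% in non-induced cells.

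The aldolase step was not called. Aldoa, which splits the sugar bisphosphate into trioses, stood at 465 FPKM in induced and 456 FPKM in non-induced cells, with a 95% interval of the log2 change of -0.25 to 0.31 in the authors' deposited table. Aldoc, the brain form, stood at 0.315 FPKM in induced and 0.316 FPKM in non-induced cells. The triosephosphate isomerase gene Tpi1 fell to 187 FPKM in induced cells, against 255 FPKM in non-induced cells (log2 change -0.44 ± 0.15, q = 0.000287) in the authors' deposited table. Aldoa was thus not called and its neighbour in the chain fell, and the difference between them was not tested.

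In the later part of the chain, from the trioses to pyruvate, Gapdh, Pgam1, Eno1 and Pkm fell and Pgk1 was not called. Gapdh, the dehydrogenase that makes NADH in this chain, stood at 30.4 FPKM in induced and 42.2 FPKM in non-induced cells, a log2 change of -0.47 ± 0.16 (q = 0.000287) in the authors' deposited table. Pgk1, the kinase that returns ATP, stood at 26.6 FPKM in induced and 29.5 FPKM in non-induced cells (q = 0.174) in the authors' deposited table. The mutase gene Pgam1 stood at 23.1 FPKM in induced and 28.0 FPKM in non-induced cells, a log2 change of -0.28 ± 0.14 (q = 0.00625) in the authors' deposited table. Pkm, the pyruvate kinase gene whose splice forms are not separated in the table, stood at 321 FPKM in induced and 391 FPKM in non-induced cells, a log2 change of -0.28 ± 0.14 (q = 0.00383) in the authors' deposited table.

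The enolase step was carried almost wholly by Eno1. Eno1, the broadly expressed enolase, fell to 88.1 FPKM in induced cells, against 129 FPKM in non-induced cells, a log2 change of -0.55 ± 0.14 (q = 0.000287) in the authors' deposited table. Only Ldhb among the members had a lower log2 change. Eno3, the muscle form, stood at 5.66 FPKM in induced and 5.02 FPKM in non-induced cells and was not called. Its share of the enolase FPKM was 6.03% in induced and 3.75% in non-induced cells, and this shift was not tested. The neuronal form Eno2 was listed at 0.00307 FPKM in induced cells and at 0 in non-induced cells.

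The lactate dehydrogenase genes held the lowest log2 change of the set and, with Ldha, its highest level in non-induced cells. Ldha, which encodes the subunit that favours lactate formation, stood at 429.9 FPKM in induced and 585 FPKM in non-induced cells, a log2 change of -0.44 ± 0.15 (q = 0.000287) in the authors' deposited table. Ldhb, the subunit that favours the return from lactate to pyruvate, fell to 16.8 FPKM in induced cells, against 32.0 FPKM in non-induced cells. Its log2 change of -0.93 ± 0.14 (q = 0.000287, 95% interval -1.21 to -0.65) lay at percentile 2.13 of all tested rows in the authors' deposited table. The ratio of Ldha to Ldhb FPKM was 25.5 in induced and 18.3 in non-induced cells, and Ldhb made up 3.77% of the pair in induced and 5.19% in non-induced cells. The lactate exporter gene Slc16a1 (MCT1) was not called at 143 FPKM in induced and 149 FPKM in non-induced cells. Slc16a3, which encodes the exporter MCT4, was not tested and was listed at 0.199 FPKM in induced and 0.149 FPKM in non-induced cells.

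Summed over the genes of each step, 8 of the 10 steps from hexokinase to pyruvate kinase had a lower value in induced cells, and isomerase and aldolase a slightly higher one. The sum over the 10 steps was 1333 FPKM in induced and 1544 FPKM in non-induced cells. Enolase had the lowest log2 ratio of summed FPKM among these steps, -0.51, followed by Gapdh with -0.47 and triosephosphate isomerase with -0.44. Phosphoglycerate kinase counts among the 8 although Pgk1 was not called. Aldolase, pyruvate kinase and triosephosphate isomerase, at 466, 321 and 187 FPKM in induced cells, weigh most in the sum over the steps. All these sums are descriptions without a test, and the median log2 change of all tested rows was -0.01.

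**Figure D3:**
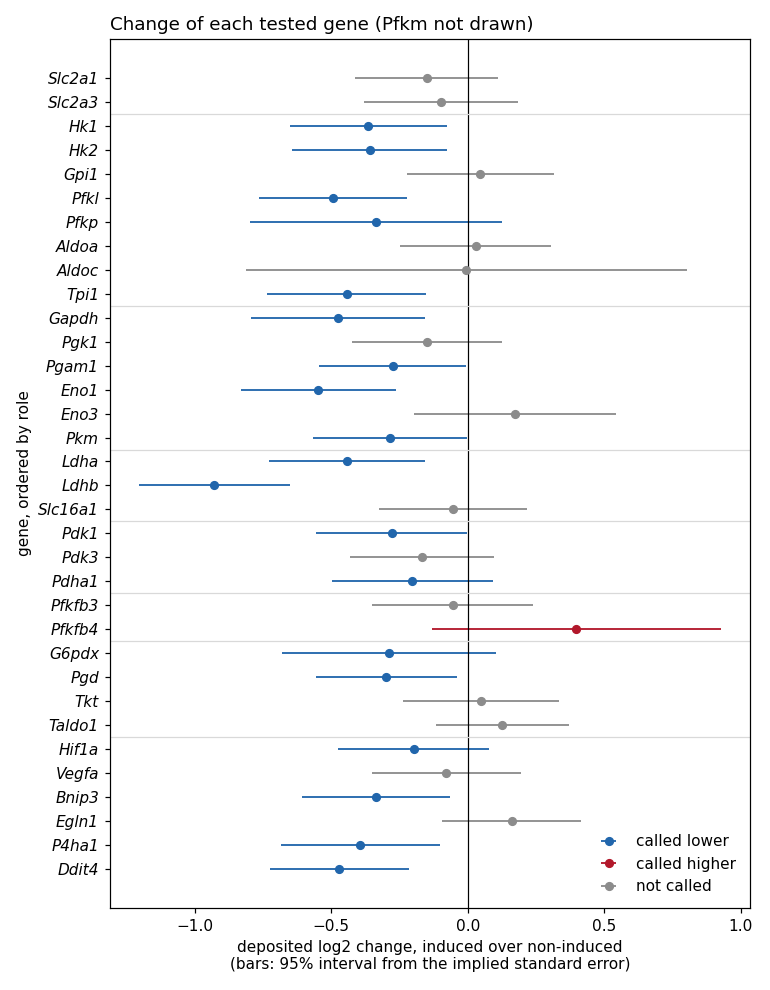
Deposited log2 change (induced over non-induced) of 34 tested genes, ordered by role, with bars for the 95% interval from the implied standard error and colour for the call. Pfkm is not drawn because its interval runs from -2.72 to 2.75. Points lie left of 0 in most roles, with Ldhb farthest left at -0.93. The bars of Pfkp, Pdha1, G6pdx, Hif1a and Pfkfb4 cross 0, although these genes were called by the deposited q-value.

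Ldhb and Eno1 were the members with the largest falls at 5 FPKM or more, and the 250 bases before their start sites are printed for that reason (RefSeq promoters, GRCm38.p6). The Ldhb stretch lies on the minus strand at chr6:142507958-142508207, and the Eno1 stretch on the plus strand at chr4:150236947-150237196. Capitals mark GCGTG or its reverse complement CACGC, a core of the HIF-bound hypoxia response element.
Ldhb: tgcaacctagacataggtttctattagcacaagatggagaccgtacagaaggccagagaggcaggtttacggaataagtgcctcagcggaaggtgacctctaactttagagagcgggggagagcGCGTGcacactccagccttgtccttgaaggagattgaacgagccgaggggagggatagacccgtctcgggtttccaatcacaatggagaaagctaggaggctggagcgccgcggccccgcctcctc
Eno1: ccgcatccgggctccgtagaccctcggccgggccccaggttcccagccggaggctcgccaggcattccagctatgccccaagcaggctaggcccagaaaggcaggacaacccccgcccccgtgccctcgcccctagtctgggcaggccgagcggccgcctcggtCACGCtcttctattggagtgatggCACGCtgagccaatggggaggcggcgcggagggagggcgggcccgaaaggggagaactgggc
The Ldhb stretch holds 1 GCGTG match and the Eno1 stretch 2, both of these on the opposite strand. ACGTG, the other form of that core, the E-box CACGTG, which itself contains ACGTG, and GAGGAA, a core of PU.1 binding sites, were found 0 times in either stretch on both strands. The GC box GGGCGG was found 0 times before Ldhb and 2 times before Eno1. Promoters were listed for 37 of the 38 genes, 52 stretches in all. ACGTG or GCGTG was held by 80.8% of the members' stretches, 56.8% of the 10191 stretches of tested genes and 38.6% of all 32851 stretches. The stretches of members called lower held it at the same 80.8%, and the set includes genes chosen as HIF targets. Taken singly, GCGTG was held by 59.6% of the members' stretches and 65.4% of those of members called lower. For ACGTG these shares were 42.3% and 30.8%. GAGGAA was held by 26.9% of the members' stretches, 22.3% of those of tested genes and 23.3% of all. Among the 26 stretches of members called lower 4 held it, 15.4%. GGGCGG was held by 59.6% of the members' stretches, 57.7% of those of tested genes and 32.7% of all. CACGTG was held by 11.5% of the members' stretches, 8.56% of those of tested genes and 6.02% of all. The stretches of members called lower held GGGCGG at 50% and CACGTG at 11.5%. Differences between these shares were not tested. The median GC content was 60.4% for the members and 59.6% for tested genes. A match describes these letters and is not evidence of a bound site.

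Pyruvate that is not reduced enters the mitochondrion through pyruvate dehydrogenase. Pdha1, its catalytic alpha subunit, stood at 95.8 FPKM in induced and 110.3 FPKM in non-induced cells, a log2 change of -0.20 ± 0.15 (q = 0.0401) in the authors' deposited table. Pdk1, a kinase that switches this enzyme off, stood at 23.7 FPKM in induced and 28.8 FPKM in non-induced cells, -0.28 ± 0.14 (q = 0.00422), in the authors' deposited table. Pdk3, a related kinase, was not called at 37.2 FPKM in induced and 41.9 FPKM in non-induced cells. The genes of the enzyme and of its inhibitor Pdk1 were thus both called lower, 2 of 3 members here, beside 16.1% of all tested rows. Both calls were lost with the statistic read as a normal deviate.

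Of the 4 pentose phosphate members, the oxidative enzyme genes G6pdx and Pgd fell, and the non-oxidative enzyme genes Tkt and Taldo1 were not called. This count of 2 of 4 stands beside 16.1% of all tested rows called lower. The difference between the branches was not tested, and both calls were lost with the statistic read as a normal deviate. G6pdx, the entry enzyme, stood at 25.5 FPKM in induced and 31.2 FPKM in non-induced cells, -0.29 ± 0.20 (q = 0.0409), in the authors' deposited table. Its row shares a locus with Ikbkg, at 8.82 FPKM in induced and 9.28 FPKM in non-induced cells. Pgd, the dehydrogenase that follows in the oxidative branch, stood at 78.8 FPKM in induced and 97.0 FPKM in non-induced cells, -0.30 ± 0.13 (q = 0.00104), in the authors' deposited table. The transketolase gene Tkt stood at 277 FPKM in induced and 268 FPKM in non-induced cells, with a 95% interval of the log2 change of -0.24 to 0.33 in the authors' deposited table. The transaldolase gene Taldo1 stood at 159.9 FPKM in induced and 147 FPKM in non-induced cells, with an interval of -0.12 to 0.37 in the authors' deposited table.

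Among the genes of the HIF pathway 4 of 6 tested members fell, beside 16.1% of all tested rows. With the statistic read as a normal deviate the call was kept for Ddit4 and lost for Hif1a, Bnip3 and P4ha1. Hif1a, the oxygen-labile subunit, stood at 42.0 FPKM in induced and 48.2 FPKM in non-induced cells, -0.20 ± 0.14 (q = 0.0459), in the authors' deposited table. Egln1, which encodes the prolyl hydroxylase PHD2 that marks this subunit for destruction, was not called at 46.3 FPKM in induced and 41.4 FPKM in non-induced cells. Egln3, a further hydroxylase and HIF target, was listed at 0 in both groups. Of the target genes, Ddit4, an inhibitor of mTOR complex signalling also known as REDD1, stood at 27.4 FPKM in induced and 37.9 FPKM in non-induced cells, -0.47 ± 0.13 (q = 0.000287), in the authors' deposited table. P4ha1, a collagen prolyl hydroxylase subunit, stood at 13.4 FPKM in induced and 17.6 FPKM in non-induced cells, -0.39 ± 0.15 (q = 0.000287), in the authors' deposited table. The mitophagy gene Bnip3 stood at 25.8 FPKM in induced and 32.5 FPKM in non-induced cells, -0.34 ± 0.14 (q = 0.000287), in the authors' deposited table. Vegfa, the angiogenic growth factor, was not called at 89.3 FPKM in induced and 94.3 FPKM in non-induced cells, with a 95% interval of the log2 change of -0.35 to 0.19 in the authors' deposited table.

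Several of the genes have processed copies, intronless sequences left elsewhere in the genome by reverse transcription of a messenger, and fragments from gene and copy may not be told apart in the counting. Each member's coding sequence (GENCODE M21) in its longest listed form, was cut into overlapping windows of 50 bases, and the share of windows found unchanged, on either strand, in a transcript of a gene at another locus was counted. That share was 100% for Pgk1 and Pgam1, 94.2% for Gapdh, 83.3% for Eno1 and 72.5% for Bnip3. It was 46.9% for Pkm, 35.6% for Ldhb, 32.4% for Gpi1 and 28.4% for Ldha, from 1.16% to 16.8% for Aldoa, Tpi1, Taldo1, G6pdx and Pdha1, and 0 for the other 24 members. Gapdh windows were met in 221 other genes, 212 of them annotated as processed pseudogenes.

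The first 60 coding bases of Pgam1 and Ldhb are printed beside those of their closest copy, to show a member whose coding windows are all shared and the member with the largest fall, with bases that differ within a pair in capitals. The Pgam1 copy lies on chromosome 7 and the Ldhb copy Gm5514 on chromosome 19.
Pgam1: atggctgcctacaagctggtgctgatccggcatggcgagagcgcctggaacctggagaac
Pgam1-ps2: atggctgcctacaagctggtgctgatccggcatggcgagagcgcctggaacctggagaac
Ldhb: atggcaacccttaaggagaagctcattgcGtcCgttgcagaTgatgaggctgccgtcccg
Gm5514: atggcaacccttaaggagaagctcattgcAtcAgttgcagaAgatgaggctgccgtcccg
The Pgam1 stretch differed from its copy at 0 of 60 bases and the Ldhb stretch at 3.

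The levels of the 3 enzymes with the highest shares were below those of the steps around them. Gapdh, Pgk1 and Pgam1 stood between 23.1 and 30.4 FPKM in induced cells and between 28.0 and 42.2 FPKM in non-induced cells. Aldoa, Tpi1, Eno1 and Pkm stood between 88.1 and 465 FPKM in induced cells and between 129 and 456 FPKM in non-induced cells. Low levels were not limited to high shares. Hk1, Hk2, Pfkl and Pfkp, with a share of 0, stood between 10.8 and 33.9 FPKM in induced cells. In non-induced cells they stood between 13.95 and 42.7 FPKM. Eno1, among the higher enzymes, had a share of 83.3%. The part of shared sequence in these levels was not tested. Few copies had a row of their own in the table: the Gapdh copy Gm12070 stood at 1.10 FPKM in induced and 1.01 FPKM in non-induced cells, and the Eno1 copy Eno1b at 0.0286 FPKM in induced and 0.0580 FPKM in non-induced cells. Calls by shared part can be set beside the 16.1% of all tested rows called lower, and the differences between the groups of members were not tested. Among the 21 tested members with no shared window 9 fell and 1 rose, with a median log2 change of -0.15 in the authors' deposited table. Of the 9 tested members with a smaller shared part 6 fell (median -0.28), and of the 5 with more than 50% shared 4 fell (median -0.34), in the authors' deposited table.

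**Figure D4:**
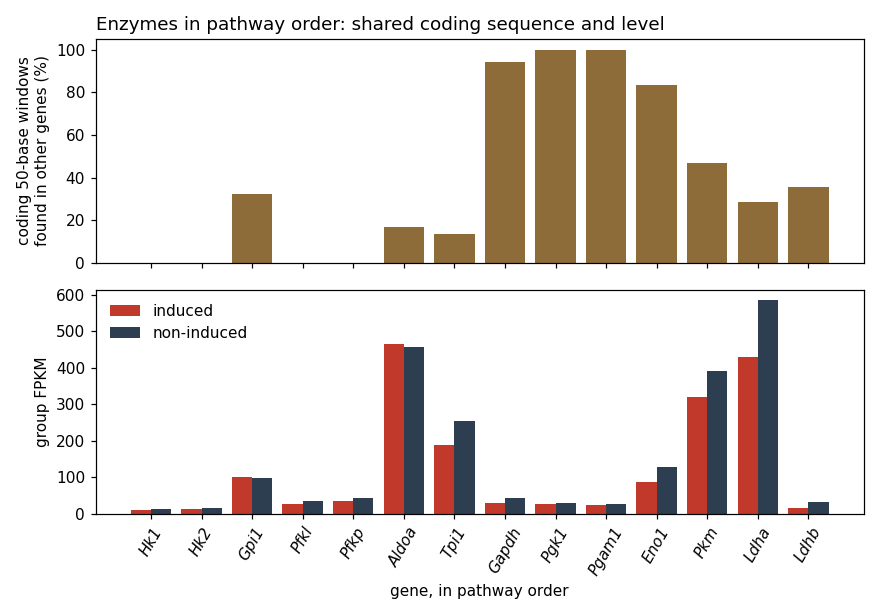
For 14 enzymes in pathway order, the upper panel gives the percent of coding 50-base windows found in other genes, and the lower panel the group FPKM, with induced cells left of non-induced cells. Gapdh, Pgk1 and Pgam1 combine shares of 94.2% to 100% with levels under 50 FPKM. Hk1, Hk2, Pfkl and Pfkp, with a share of 0, also lie under 50 FPKM.

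The genes also share position to some degree. Eno2, Tpi1 and Gapdh lie close together on the minus strand of chromosome 6, at 124760053 to 124769673, 124810586 to 124814296 and 125161715 to 125166467 (mm10, protein-coding genes, GENCODE M21). Tpi1 and Gapdh fell there by like amounts, while Eno2 was at or near 0. Slc2a3 lies on the same chromosome at 122727809 to 122801640 and was not called. Hk2 (82725025 to 82774454) and Ldhb (142490249 to 142507957) lie farther off on that chromosome, and both fell. Of the members 6 share a table locus with another row (Hk1, Pfkm, Pfkp, Tpi1, Pdha1 and G6pdx), and 5 of these were called lower. This stands beside 54.3% of all tested members and 16.1% of all tested rows, and a link to the shared locus was not tested.

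Other genes of the same pathways, listed from general knowledge, were counted in 4 lists, to be read against the 16.1% lower and 19% higher of all tested rows. These lists, like the members, were drawn up with earlier results known. Of 28 tested further HIF pathway and hypoxia-induced genes 12 fell and 3 rose, with a median log2 change of -0.19 in the authors' deposited table. Ndrg1, a stress-response gene, stood at 4.07 FPKM in induced and 9.02 FPKM in non-induced cells, a log2 change of -1.15 ± 0.16 in the authors' deposited table. Cited2, a competitor of HIF for its coactivator, stood at 71.2 FPKM in induced and 126 FPKM in non-induced cells, -0.82 ± 0.12 on the log2 scale in the authors' deposited table. The carbonic anhydrase gene Car12 (6.50 FPKM in induced and 9.66 FPKM in non-induced cells) and the lysyl hydroxylase gene Plod2 (12.2 FPKM in induced and 17.3 FPKM in non-induced cells) fell too. The chemokine receptor gene Cxcr4 rose to 111 FPKM in induced cells, against 71.5 FPKM in non-induced cells, and Wsb1 to 55.4 FPKM, against 45.4 FPKM in non-induced cells. Fosl2, under 1 FPKM in both groups, was the other gene called higher. With the statistic read as a normal deviate the calls of Ndrg1, Cited2, Car12, Plod2, Cxcr4 and Fosl2 were kept. That of Wsb1 was lost, as were those of several falls not named here.

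Of 20 tested further genes of glucose, glycogen and lactate handling 6 fell and 4 rose, with a median log2 change of -0.13 in the authors' deposited table. The muscle glycogen phosphorylase gene Pygm stood at 1.25 FPKM in induced and 3.08 FPKM in non-induced cells, -1.30 ± 0.18 on the log2 scale in the authors' deposited table. The transporter gene Slc2a6 (2.36 FPKM in induced and 3.37 FPKM in non-induced cells), the glycogen branching gene Gbe1 (6.08 FPKM in induced and 8.01 FPKM in non-induced cells) and the glycogen synthase gene Gys1 (2.66 FPKM in induced and 3.23 FPKM in non-induced cells) fell as well. Pgm2l1, which makes glucose bisphosphate, rose to 10.8 FPKM in induced cells, against 4.73 FPKM in non-induced cells, a log2 change of 1.198 ± 0.15 in the authors' deposited table. The muscle mutase gene Pgam2 rose to 1.74 FPKM in induced cells, against 0.822 FPKM in non-induced cells. Pfkfb2 (3.67 FPKM in induced and 2.89 FPKM in non-induced cells) and Pck2 (86.5 FPKM in induced and 74.7 FPKM in non-induced cells) rose by less. With the statistic read as a normal deviate the calls of Pygm, Slc2a6, Pgm2l1 and Pgam2 were kept. Those of Gbe1, Gys1, Pfkfb2, Pck2 and the falls not named here were lost.

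Of 10 tested further pentose phosphate and ribose genes 1 rose and 2 fell. Pgls, the lactonase between the G6pdx and Pgd reactions, rose to 267 FPKM in induced cells, against 183 FPKM in non-induced cells, a log2 change of 0.55 ± 0.11 (q = 0.000287) in the authors' deposited table. It thus rose while the other oxidative enzyme genes, G6pdx and Pgd, fell, and the difference between them was not tested. Rpia, the ribose phosphate isomerase gene, stood at 79.2 FPKM in induced and 92.2 FPKM in non-induced cells, and Shpk, under 1 FPKM, was the other gene that fell. Of 11 tested further genes of pyruvate entry 1 fell, Pdhb, the beta subunit partner of Pdha1, at 56.3 FPKM in induced and 65.3 FPKM in non-induced cells, and 0 rose by the Cuffdiff test. The counts of these last 2 lists are small and lie near or below the share of all tested rows. With the statistic read as a normal deviate the call of Pgls was kept, and those of Rpia, Shpk and Pdhb were lost. Their median log2 changes were -0.14 for pentose phosphate and ribose and -0.19 for pyruvate entry in the authors' deposited table. The median of all tested rows was -0.01.

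Markers place the cells beside these changes. Of 13 pro-B markers 12 were tested, 9 were called higher and 0 lower, Kit was listed at 0 in both groups, and their summed level was 4297 FPKM in induced and 2831 FPKM in non-induced cells. The 11 macrophage and granulocyte markers in the table summed to 23.4 FPKM in induced and 2.23 FPKM in non-induced cells, with 3 called higher (Cd14, Cd68 and Lyz2) and 4 listed at 0 in both groups. The 9 T cell markers summed to 227 FPKM in induced and 284 FPKM in non-induced cells, most of it Lat at 208 FPKM in induced and 240.3 FPKM in non-induced cells, with Cd3e and Cd4 listed at 0 in both groups. Of 3 tested T cell markers 2 were called lower, Lat and the kinase gene Zap70, the second at 19.3 FPKM in induced and 43.0 FPKM in non-induced cells. The 4 erythroid markers summed to 0.316 FPKM in induced and 0.377 FPKM in non-induced cells, and the 7 stromal markers to 0.00107 FPKM in induced cells and 0 in non-induced cells. The part of these shifts in the lower glycolysis values was not tested.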

How the data were processed

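RNA libraries of i660BM cells, 3 induced and 3 non-induced, were stranded mRNA preparations, per the labels' protocols. Per the submitters' processing notes, the tools were Cuffdiff 2.1.1, Cufflinks, TopHat2 2.0.9 and Trim Galore 0.2.8.1, with the build mm10. For the annotation, for fragments that align to several places and for strand in counting, the setting was not given in the sources used here. In the authors' table, as deposited, each gene has 1 FPKM value in each group, the log2 fold change, the score of the test, a p-value and a q-value. The table has 23793 rows, of which 10657 were tested. In the deposited log2 column 524 cells are spreadsheet error marks, none of them in a tested member.

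The deposited q-values matched Benjamini-Hochberg values recomputed over all tested rows to within 5.15e-07. The smallest p-value, 5e-05, is shared by 1855 rows, so the smallest q-value is 0.000287. The standard error of a log2 change was taken as the change divided by the test statistic, a relation that the table does not state, and its median over the tested members was 0.14. Intervals are at the 95% level. No test per library could be made from group values.

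To estimate depth, FPKM times length was taken over single-transcript genes of 1 kb or more, whose low values step by 1 fragment. With the best step, 66.3% of low values in induced and 71.0% in non-induced cells lay within 0.15 of a whole number, so the depth is approximate.

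The members, the roles and the further gene lists were chosen with earlier results of these data known. Every member is named. Of each further list the called genes with at least 1 FPKM in the higher group are named, at most 4 in each direction, and genes named beyond that rule were chosen after their values were seen. Promoters, credited to RefSeq, were printed for the 2 members with the largest falls at 5 FPKM or more. Scripts ran on Python 3.11.15 with pandas 2.3.3 and scipy 1.17.1, and the calling code was tested on simulated data. The closing section gives the alternatives.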

Additional observations from a re-analysis of the deposited data

How the results depend on the processing

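The count of 19 members called lower was 15 at a deposited q under 0.01, 19 with a mean of at least 1 or of at least 10 FPKM, 14 without rows that share a locus, 14 without members with a named copy and 15 without the 5 members that share more than 50% of their coding windows with other genes, the last an alternative chosen after seeing the data. It was 7 with the statistic read as a normal deviate and 1 at 1.5-fold or more. The first uses another reference distribution for the same statistic and the second leaves out small changes by construction. The share of all tested rows called lower was 16.1% as deposited, 15.1% at a mean of at least 10 FPKM and 6.16% with the normal deviate. It was not counted for the other alternatives, so their counts have no background beside them. The 1 member called higher, Pfkfb4, was lost under 5 alternatives (0 called higher by Cuffdiff at q under 0.01, with normal p-values, at 1.5-fold, and at means of at least 1 and 10 FPKM). The median log2 change of -0.20 ranged from -0.28 to -0.17 over its 9 alternatives and stayed below 0 in each. Rescaling to TPM, to the median or to the upper quartile shifts every log2 change by a constant, -0.0171, 0.0075 and 0.0075 in that order, which is smaller than any called member's change. Adding 1 FPKM before taking logs lowered the Pfkfb4 change to 0.12.

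Leaving out single libraries was not run because the table holds group values only. No paired analysis was possible because the table gives no value per library, although the labels number the libraries of both groups. The members under 1 FPKM (Pfkm, Aldoc, Pfkfb4, Eno2, Slc16a3 and Egln3) rest on low values. The implied standard error was 1.40 for Pfkm, 0.41 for Aldoc and 0.27 for Pfkfb4, and the part of depth in it was not tested. A value listed at 0 can be a failed estimate.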

Other observations

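Genes that sense glucose or control mTOR complex signalling were a further list, drawn up with earlier results known. Of its 16 tested genes 4 rose and 1 fell, beside 19% higher and 16.1% lower of all tested rows, with a median log2 change of 0.06 in the authors' deposited table. Txnip, an arrestin that restrains glucose uptake, stood at 96.2 FPKM in induced and 49.9 FPKM in non-induced cells, a log2 change of 0.95 ± 0.15 (q = 0.000287) in the authors' deposited table. Mlxip, which encodes the glucose-responsive factor MondoA that drives Txnip, stood at 25.1 FPKM in induced and 15.9 FPKM in non-induced cells, 0.66 ± 0.15 (q = 0.000287), in the authors' deposited table. The kinase gene Mtor stood at 126 FPKM in induced and 71.8 FPKM in non-induced cells, 0.81 ± 0.14 (q = 0.000287), in the authors' deposited table. Deptor, an mTOR inhibitor under 1 FPKM in both groups, was the fourth gene that rose. Sesn1, an inhibitor that responds to p53, was the gene that fell, at 23.6 FPKM in induced and 28.2 FPKM in non-induced cells. These calls were kept with the statistic read as a normal deviate for Txnip, Mlxip, Mtor and Deptor and lost for Sesn1.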
